A study of Bos taurus with 33 samples.

Results

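The transcripts described here are those of 9 proteoglycans and of PTN (pleiotrophin), a secreted growth factor that binds their sugar chains, in bovine cumulus cells (CC) and in the oocytes those cells enclosed. They were SRGN, FMOD, DCN, LUM, BGN, SDC1, SDC4, GPC1, GPC4 and PTN, 10 of the 16244 transcripts in the CC table and of the 16279 in the oocyte table, found by symbol and joined by Ensembl identifier. The set was chosen by measured values, since SRGN, FMOD and PTN had been seen to be highest in CC of spontaneous follicles. For these 3 transcripts the CC values of spontaneous pools against small or large pools are therefore a description with no test. Values are in CPM, the reads of a transcript scaled to a common library total. A filter on low values asked for 5 CPM or more in 5 or more CC pools and in 4 or more oocyte pools. In CC 9 of the 10 transcripts passed it, all but BGN, and in oocytes 4 of the 10 passed, namely SRGN, LUM, GPC4 and PTN.

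A proteoglycan is a core protein that carries long sulfated sugar chains of the heparan sulfate, chondroitin or dermatan sulfate, or keratan sulfate type. The chains hold water and bind growth factors, so proteoglycans act both as matrix and as co-receptors. Around the time of ovulation the cumulus lays down a matrix of hyaluronan and proteins that separates its cells, in which the large proteoglycan versican (VCAN) takes part. SRGN (serglycin) is the proteoglycan of intracellular granules and is also secreted. FMOD (fibromodulin), DCN (decorin), LUM (lumican) and BGN (biglycan) are small leucine-rich proteoglycans that bind collagen fibrils, SDC1 and SDC4 are syndecans, which span the membrane, and GPC1 and GPC4 are glypicans, which are held to it by a lipid anchor.

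Cumulus-oocyte complexes were aspirated from the largest follicle of adult, suckled postpartum Hereford-Angus crossbred beef cows. All cows received GnRH on day -9 and prostaglandin F2α on day -2. Cows without estrus received a second GnRH injection on day 0, which induced the gonadotropin surge, and gave the small (diameter up to 11.7 mm) and large (from 12.7 mm) follicles. Cows that showed estrus had an endogenous surge without that injection and gave the spontaneous follicles (11.7 to 14.0 mm). Spontaneous follicles thus differed from the others in how the surge arose as well as in size, and the effects of each cannot be told apart. One part of the sample labels gives about 20 h and another about 23 h from injection or estrus to aspiration. Each library was made from amplified cDNA of 4 pooled oocytes, or of the CC of the same kind of pool, with 6 small, 6 large and 4 spontaneous oocyte pools and 6, 6 and 5 CC pools.

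CC pools held 1911600 to 5772431 reads on genes and oocyte pools 7664375 to 17934916. A count of 0 therefore allowed up to 0.520 to 1.57 CPM in CC and 0.167 to 0.391 CPM in oocytes, the worth of 3 reads, which covers counting error only. CC pools had 18539 to 29824 summed CPM of 14 cumulus and granulosa markers in spontaneous pools, 20546 to 34059 in large and 12347 to 25575 in small pools, and at most 13.7 CPM over 7 listed oocyte markers. Oocyte pools had 9054 to 13312 CPM of 12 oocyte markers and 525 to 4042 CPM of the cumulus markers, so each kind of pool carried the markers of its label. In CC the median log2 fold change of all transcripts was 0.16 where spontaneous pools were set against small ones and 0.11 against large ones, and 0.01 in both after median-of-ratios scaling. Changes in spontaneous CC are to be read against these shifts. In pools of whole cells, fewer cells of a type and less RNA per cell cannot be told apart.

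SRGN (ENSBTAG00000017863) was the transcript, of the 10, with the widest distance between CC classifications. In CC it had a lowest, median and highest value of 208, 489 and 626 CPM in the 6 small pools and of 342, 678 and 1830.1 CPM in the 6 large pools. In the 5 spontaneous pools it had 1908, 1044, 1209, 3928 and 2041 CPM. Every spontaneous pool was above every small pool, while 2 of the large pools, with 1303 and 1830.1 CPM, lay among the spontaneous ones. Mean SRGN was 439 ± 166 CPM for small, 891 ± 564 CPM for large and 2026 ± 1147 CPM for spontaneous pools (SD over 6, 6 and 5 pools). The spontaneous mean was 4.62 times the small mean and 2.27 times the large mean, and the log2 fold changes on log2(CPM + 1) were 2.15 and 1.25. After median-of-ratios scaling they were 1.99 and 1.15.

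The comparison of small with large pools was not used to choose SRGN. The log2 fold change of SRGN was 0.90 (95% interval 0.17 to 1.62, standard error 0.346), with a limma nominal p = 0.0177, adjusted p = 0.999, and an exact two-sided permutation p = 0.0758 for the mean CPM. The smallest p that such a permutation test could give was 0.00216. The difference did not pass the threshold of a nominal p of 0.01, and 3 of the 6 large pools lay above all small pools. With a pool left out the log2 fold change ran from 0.64 to 1.13, and it passed without large replicate 3, the lowest large pool.

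**Figure D1:**
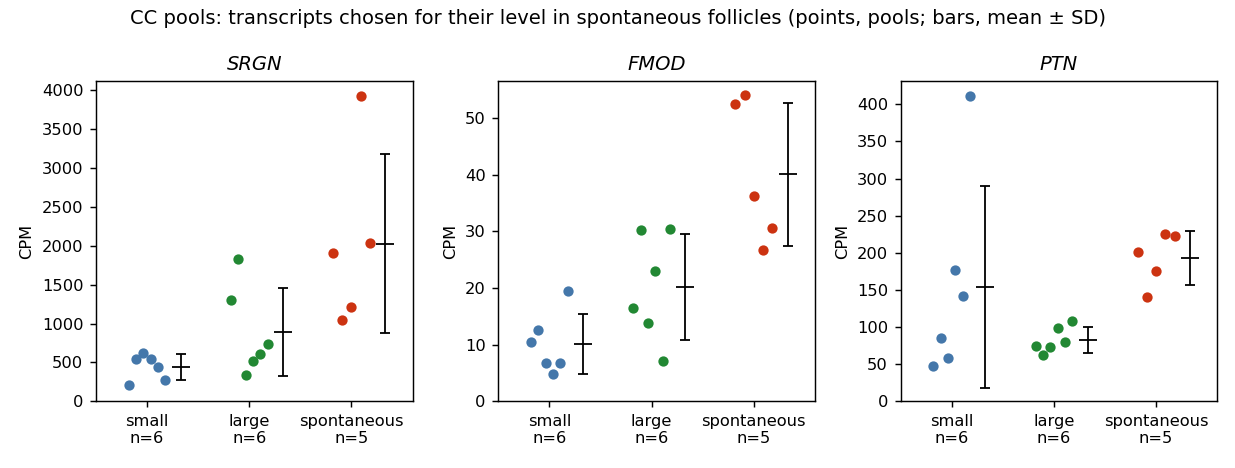
SRGN, FMOD and PTN in CC pools, in CPM on the vertical axis, by follicle classification; each point is a pool and the bars are the mean ± SD (n = 6, 6 and 5). SRGN and FMOD in spontaneous pools lie above all small pools, and PTN in spontaneous pools lies above all large pools but below small replicate 6 at 412 CPM.

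SRGN is also expressed by white blood cells, so the markers of those cells stand beside it. Over the 19 white blood cell markers listed in the CC table, pools from small follicles summed to between 52.4 and 199.8 CPM, those from large follicles to between 46.1 and 283 CPM and spontaneous pools to between 68.3 and 309 CPM. From large to spontaneous pools 10 of the 11 retained markers were higher, with a median log2 fold change of 0.73 (0.11 for all transcripts). In limma 0 of 11 passed the threshold there, with 0 under an unadjusted p of 0.05. From small to spontaneous pools 8 of the 11 were higher, with a median of 0.17 (0.16 for all transcripts). From small to large pools 3 of the 11 were higher, with a median of -0.37 (0.05 for all transcripts). PTPRC, the pan-leukocyte surface phosphatase, had medians of 8.11, 4.05 and 8.36 CPM in small, large and spontaneous pools. Among small pools replicate 3 had the most of both, with 626 CPM of SRGN and 199.8 CPM of the markers. Small replicate 1 had the least of both, with 208 and 52.4 CPM. Among large pools replicate 6 had the most marker signal, 283 CPM, with 742 CPM of SRGN. Large replicate 2 had the most SRGN, 1830.1 CPM, with 96.1 CPM of the markers. The spontaneous pool with the most white blood cell signal, replicate 2 at 309 CPM, had the lowest SRGN of the 5. The spontaneous pool with the most SRGN, replicate 4, had 155 CPM of these markers. The part of white blood cells in the SRGN level was not tested.

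FMOD (ENSBTAG00000014912) had a lowest, median and highest value of 4.86, 8.64 and 19.4 CPM in small CC pools and of 7.10, 19.7 and 30.5 CPM in large ones. In the spontaneous pools it had 52.4, 54.0, 36.3, 26.7 and 30.6 CPM. All 5 spontaneous pools were above all small pools, and 4 of the 5 were above all large pools. The mean was 10.2 ± 5.33, 20.2 ± 9.40 and 40.0 ± 12.6 CPM (SD, n = 6, 6 and 5), and the log2 fold changes to spontaneous pools were 1.95 from small and 1.04 from large pools. From small to large pools the log2 fold change was 0.91 (standard error 0.380, limma nominal p = 0.0274, adjusted p = 0.999, exact permutation p = 0.0476), short of the threshold. With a pool left out it ran from 0.75 to 1.15, and it passed without small replicate 6 (1.11) or large replicate 5 (1.15).

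For LUM, DCN and BGN the 3 classifications overlapped. LUM (ENSBTAG00000001745) ranged from 131 to 873 CPM (median 339.6) in small, from 189 to 849.6 (median 289) in large and over 555, 879.9, 311, 196 and 437 CPM in spontaneous CC pools. These ranges covered one another almost fully. The log2 fold change of LUM was -0.01 from small to large (95% interval -0.84 to 0.82), 0.33 from small to spontaneous (-0.51 to 1.18) and 0.34 from large to spontaneous pools (-0.50 to 1.18), and the limma nominal p-values were 0.401 or more. DCN (ENSBTAG00000003505) ranged from 32.1 to 73.9 CPM (median 49.7) in small, from 19.0 to 73.9 (median 28.9) in large and over 45.6, 60.7, 60.1, 23.4 and 39.5 CPM in spontaneous pools. It was the only one of the 10 transcripts with its highest CC mean in small pools, and its log2 fold changes were -0.45 (95% interval -1.13 to 0.23), -0.15 (-0.74 to 0.44) and 0.31 (-0.42 to 1.03) in the same order of comparisons, with limma nominal p-values of 0.182, 0.608 and 0.384. BGN (ENSBTAG00000005250) was at 0 in 12 of 17 CC pools and had 20 reads in all, with at most 1.54 CPM in a pool. It failed the filter, and no difference in BGN was detectable at this depth.

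In the RefSeq annotation of the assembly ARS-UCD2.0, used here for gene order only, LUM and DCN lie next to each other with KERA and EPYC beside LUM, FMOD lies next to PRELP, and GPC4 lies next to GPC3. KERA and EPYC had at most 0.390 and 0.307 CPM in a CC pool. PRELP, another small leucine-rich proteoglycan, had means of 2.49 ± 1.39, 5.77 ± 3.92 and 6.0 ± 1.60 CPM in small, large and spontaneous CC pools. Spontaneous pools did not overlap small ones, and the difference between them was 1.08 on the log2 scale (limma adjusted p = 0.438). PRELP is named for its position after its values were seen, and it did not pass the threshold in any of the 3 CC comparisons with the filter in place. It passed against small pools with no filter, with a mean of at least 1 CPM, and without small replicate 4 (1.20) or 5 (1.20). Its mean in small pools lay under the 5 CPM of the filter, and it was picked after its values were seen. These passes and the lack of overlap are therefore a description and no support for a difference.

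**Figure D2:**
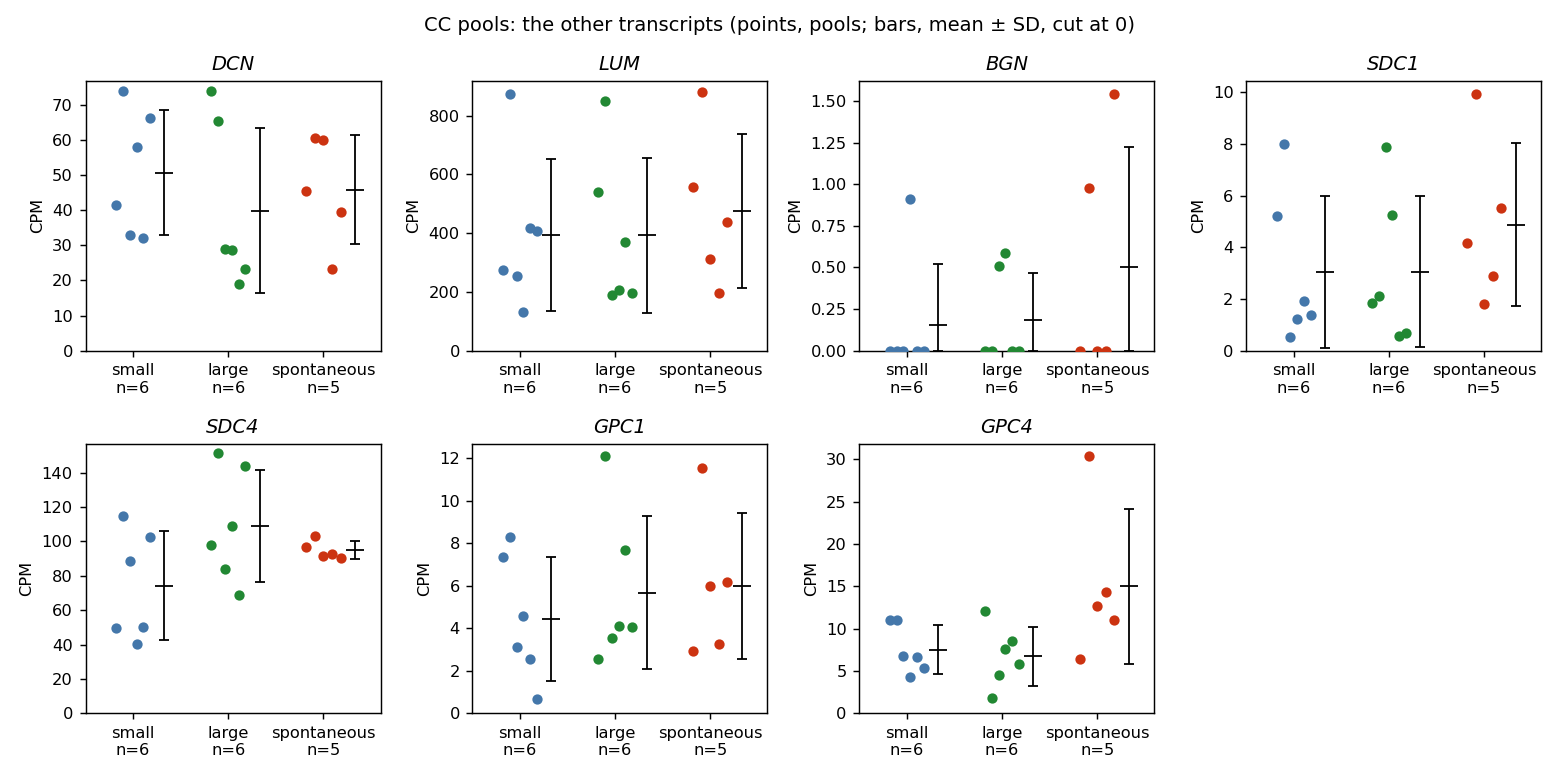
DCN, LUM, BGN, SDC1, SDC4, GPC1 and GPC4 in CC pools, in CPM on the vertical axis, by follicle classification; each point is a pool and the bars are the mean ± SD cut at 0 (n = 6, 6 and 5). The classifications overlap for each of the 7, GPC4 reaches 30.4 CPM in 1 spontaneous pool, and SDC4 in spontaneous pools keeps between 90.4 and 103 CPM.

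Among the cell-surface proteoglycans SDC4 (ENSBTAG00000015127), a syndecan of focal adhesions, ranged from 40.1 to 115 CPM (median 69.4) in small and from 68.7 to 151 (median 103) in large CC pools. In spontaneous pools it had 97.0, 103, 91.5, 92.7 and 90.4 CPM. SDC4 was thus the member with the least spread in spontaneous pools, with a coefficient of variation of 5.43% against 42.4% in small pools. From small to large pools its log2 fold change was 0.60 (standard error 0.272, limma nominal p = 0.0380, adjusted p = 0.999, exact permutation p = 0.0931), and from small and large to spontaneous pools it was 0.46 and -0.15 (limma nominal p-values of 0.0854 and 0.465, and 0.30 and -0.25 after median-of-ratios scaling). SDC1 (ENSBTAG00000011154) was low, at 0.523 to 8.0 CPM (median 1.66) in small, 0.568 to 7.89 (median 1.99) in large and 4.18, 9.95, 1.82, 2.90 and 5.51 CPM in spontaneous pools. Its log2 fold changes were 0.00, 0.67 and 0.67, with limma nominal p-values of 0.209 or more and 95% intervals from -1.20 to 1.77 over the 3 comparisons.

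GPC4 (ENSBTAG00000020644) had a lowest, median and highest value of 4.25, 6.72 and 11.1 CPM in small and of 1.78, 6.74 and 12.1 CPM in large CC pools. In spontaneous pools it had 6.48, 30.4, 12.7, 14.3 and 11.02 CPM, so that 3 of the 5 lay above all small and all large pools. GPC4 was higher in spontaneous pools by 0.81 against small (95% interval 0.05 to 1.57, limma nominal p = 0.0381, adjusted p = 0.564, exact permutation p = 0.0519) and by 1.04 against large pools (0.16 to 1.91, limma nominal p = 0.0235, adjusted p = 0.624, exact permutation p = 0.0325). Neither passed the threshold. The second did without spontaneous replicate 1 (1.27), whereas without spontaneous replicate 2 the log2 fold changes were 0.53 and 0.75. GPC1 (ENSBTAG00000015996) ranged from 0.693 to 8.31 CPM (median 3.85) in small, from 2.55 to 12.1 (median 4.08) in large and over 2.93, 11.5, 5.99, 3.27 and 6.17 CPM in spontaneous pools, with log2 fold changes of 0.36, 0.44 and 0.08 and limma nominal p-values of 0.362 or more.

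PTN (ENSBTAG00000002317) differed from SRGN and FMOD in its order. It had a lowest, median and highest value of 47.5, 114 and 412 CPM in small and of 62.3, 77.3 and 108 CPM in large CC pools. In spontaneous pools it had 200.6, 140.4, 175, 226 and 223 CPM. All 5 spontaneous pools were above all large pools, but the highest of the 17 pools was small replicate 6. The mean was 154 ± 136, 82.8 ± 17.3 and 193 ± 35.8 CPM (SD, n = 6, 6 and 5), with a coefficient of variation of 88.3% in small pools and of 20.9% and 18.6% in large and spontaneous pools. The spontaneous mean was 2.33 times the large mean, a log2 fold change of 1.21.

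Against small pools the PTN log2 fold change to spontaneous pools was 0.70. Without small replicate 6 it was 1.06, and on reads with edgeR, which weighs means rather than logarithms, it was 0.24 over all pools. From small to large pools, which did not choose PTN, the log2 fold change was -0.51 (standard error 0.375, limma nominal p = 0.186, adjusted p = 0.999, exact permutation p = 0.219). It was -0.15 without small replicate 6 and -0.89 with edgeR, neither of which passed the threshold.

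**Figure D3:**
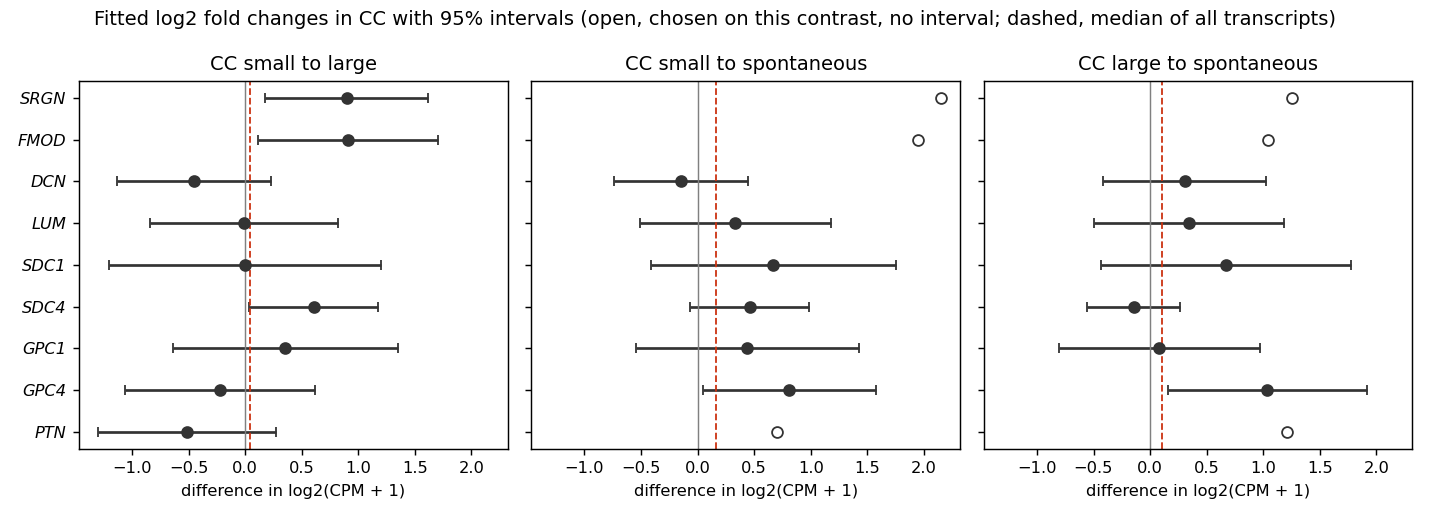
Difference in mean log2(CPM + 1) for the 9 retained transcripts in the 3 CC comparisons, with 95% intervals; open circles are transcripts chosen on that contrast and carry no interval, and the dashed line is the median of all 9712 transcripts. SRGN is at 2.15 and FMOD at 1.95 from small to spontaneous pools, and the tested intervals that leave out 0 are those of SRGN, FMOD and SDC4 from small to large and of GPC4 to spontaneous pools.

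Of the 9 retained transcripts 7 had their highest CC mean in spontaneous pools, DCN had it in small and SDC4 in large pools. Among all 9712 retained CC transcripts 47.4% had their highest mean in spontaneous pools, and 3 of the 7, SRGN, FMOD and PTN, had been selected on that order. At a nominal p of 0.01, limma called 0 of 9 from small to large pools, where 3 had an unadjusted p under 0.05 (388 of all 9712 transcripts did), and of all transcripts 0.813% were called and 0.690% were called as higher in large pools. Between small and spontaneous pools 0 of the 6 tested were called and 1, GPC4, had an unadjusted p under 0.05 (830 of all 9712 did), beside 2.38% of all transcripts called and 2.28% called as higher in spontaneous pools. From large to spontaneous pools the count was again 0 of 6, with GPC4 under 0.05 (687 of all 9712 were), beside 1.66% called and 1.45% called as higher. With edgeR and DESeq2 the counts were 0 in each of these comparisons. The direction of the calls over all transcripts depended on the scaling. Of the 79, 231 and 161 called, 67, 221 and 141 were higher in the classification named second. After median-of-ratios scaling it was 44 of 70, 78 of 126 and 62 of 116. Without mitochondrially encoded genes it was 27 of 67, 67 of 120 and 83 of 121. Those genes took 12.6 to 44.0% of the CPM in small, 14.4 to 28.0% in large and 14.3 to 22.1% in spontaneous CC pools. The part of this share in the directions was not tested. The classifications did not overlap for SRGN and FMOD from small to spontaneous pools and for PTN from large to spontaneous pools, the contrasts that chose them. That held for 1.16% and 0.865% of all transcripts, and for 0.247% from small to large pools, where no member was free of overlap.

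The members did not vary as one group from pool to pool. Spontaneous replicate 2 had the highest value of the 5 spontaneous pools for FMOD, DCN, LUM, SDC1, SDC4, GPC1 and GPC4, and the lowest for SRGN and PTN. Small replicate 2 was likewise the highest small pool for DCN, LUM, SDC1, SDC4, GPC1 and GPC4, 6 of 9, and large replicate 2 the highest large pool for SRGN, LUM, SDC4 and GPC1. Over the 17 CC pools, with each pool taken as its deviation from the mean of its classification on log2(CPM + 1), the correlation of SRGN with FMOD was -0.10, that of SRGN with PTN -0.02 and that of FMOD with PTN 0.16. Of the 36 pairs of retained members the highest such correlation was that of FMOD with SDC4 (0.76), followed by DCN with LUM (0.59), and the lowest was that of GPC1 with PTN (-0.64). These are descriptions over pools that share their library and its scaling.

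Spontaneous CC replicate 2 also stood apart in markers of stromal cells. It had 2117 CPM of COL1A2, 218 CPM of COL3A1 and 19.3 CPM of PDGFRB, genes of collagen-forming cells, where the other 16 CC pools had at most 40.8, 24.3 and 1.21 CPM. It also had the highest ACTA2 (38.0 CPM, at most 18.3 in the others) and PDGFRA (466 CPM, at most 333). Its COL1A1 (374 CPM, 112 to 449 in the others), INSL3 (176 CPM, 108 to 1162) and CYP17A1 (0.585 CPM, 0 to 0.781) lay within the values of the other pools. TAGLN, NR2F2 and TCF21 reached 9.26, 29.9 and 3.55 CPM in spontaneous pools and 14.1, 29.4 and 21.0 CPM in the highest of the other pools. The summed CPM of the 11 theca and stroma markers was 340.0 to 1331 in small, 755 to 1061 in large and 806 to 3435 in spontaneous pools, with 3435 in that replicate and 1502 in the next. CYP17A1 is the steroidogenic enzyme of theca cells. LUM and DCN, which fibroblasts make, were at 879.9 and 60.7 CPM in replicate 2. In the highest small and large pools LUM was at 873 and 849.6 CPM, and DCN was at 73.9 CPM in each. Without this pool the spontaneous log2 fold changes against small and large pools were 2.34 and 1.45 for SRGN, 1.83 and 0.92 for FMOD and 0.81 and 1.32 for PTN. Without it those of LUM were 0.07 and 0.08 in place of 0.33 and 0.34, and those of SDC1 were both 0.41 in place of 0.67. For GPC4 they were 0.53 and 0.75 in place of 0.81 and 1.04, and for GPC1 0.20 and -0.16 in place of 0.44 and 0.08. For DCN they were -0.26 and 0.19, and for SDC4 0.43 and -0.18. The part of stromal cells in these values was not tested.

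Of the retained CC transcripts, those most like SRGN over the 17 pools on log2(CPM + 1) were ATP6V1C1, a subunit of the proton pump of lysosomes and granules (r = 0.85), HNRNPD, an RNA-binding protein (r = 0.84), and THBS1, the matrix protein thrombospondin (r = 0.82). The median of THBS1 was 161 CPM over small, 270.3 CPM over large and 538 CPM over spontaneous pools. Those most like FMOD were ALAD, an enzyme of heme synthesis (r = 0.83), C16H1ORF21 (r = 0.83) and PPHLN1 (r = 0.82). Those most like PTN were JKAMP (r = 0.88), RAB9A, a GTPase of endosomes (r = 0.86), and MAT2B, a subunit of the enzyme that makes S-adenosylmethionine (r = 0.80). None of the 9 was among the other lists described here, and the 3 sets had no transcript in common. These correlations include the differences between classifications on which SRGN, FMOD and PTN were chosen, so a shared order of classifications is no support. With deviations from classification means they were, in the order named, 0.72, 0.57 and 0.74 for SRGN. For FMOD they were 0.67, 0.70 and 0.59, and for PTN 0.84, 0.83 and 0.73.

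For the known partners of PTN in CC the values are given gene by gene and are not compared between genes. PTPRS, a receptor phosphatase that binds proteoglycans, had means of 169 ± 58.2, 165 ± 39.3 and 149 ± 18.2 CPM in small, large and spontaneous pools, LRP1 had 110 ± 46.0, 158 ± 34.8 and 139 ± 28.9, and nucleolin (NCL) had 485 ± 52.9, 496 ± 82.6 and 464 ± 49.1 CPM. PTPRZ1, the receptor phosphatase best known to bind PTN, had a median of 0, 0.0976 and 0 CPM, and MDK (midkine), the other member of the PTN family, had at most 10.9 CPM. ITGAV, a subunit of an integrin that PTN binds, had 491 ± 111, 754 ± 163 and 831 ± 311 CPM and rose past the nominal threshold, by 0.62 from small to large (standard error 0.194, limma adjusted p = 0.999) and by 0.72 against spontaneous pools (standard error 0.225, limma adjusted p = 0.390). It was the only 1 of 8 retained partners to pass, where 0.813% and 2.38% of all transcripts did. The median log2 fold change over the partners was 0.31 and 0.13 in these comparisons, against 0.05 and 0.16 for all transcripts. In limma 0 of 8 passed from large to spontaneous pools, with 1, NRP1 (0.83), under an unadjusted p of 0.05 and a median of -0.10 against 0.11 for all transcripts.

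Together the 8 lists of proteoglycans, of enzymes that build and sulfate their chains and of PTN partners had 62 transcripts retained in CC. From small to large pools 3 of 62 tested were called (4.84%, against 0.813% of all transcripts), all higher in large pools, with a median log2 fold change over the lists of 0.24 against 0.05 for all transcripts. These were ITGAV, VCAN (0.71, standard error 0.246) and CHST11, which sulfates chondroitin (0.60, standard error 0.159). CHST11 had 149 ± 15.0 CPM in small and 228 ± 32.6 in large pools, and these did not overlap. Against small pools 3 of 60 were called (5%, against 2.38% of all transcripts), each as higher in spontaneous pools, namely ITGAV, CHST11 (0.75, standard error 0.250) and PAPSS1, which makes the sulfate donor (0.56, standard error 0.185), with medians of 0.33 for the lists and 0.16 for all transcripts. From large to spontaneous pools 1 of 60 was called (1.67%, against 1.66% of all transcripts), with medians of 0.14 for the lists and 0.11 for all transcripts. It was EXTL2, an enzyme of heparan sulfate assembly (0.70, standard error 0.212), which had 24.8 ± 5.14 CPM in large and 40.5 ± 6.61 in spontaneous pools. None of these had an adjusted p under 0.05. The study had already reported VCAN as higher in CC of large than of small follicles from these same data. The lists were made with earlier results known, so the shares called over them are a description and no support.

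Of these 7 calls, 1 held with each pool left out in turn, that of CHST11 from small to large pools, and it was lost in one fit of all 3 classifications. VCAN lost its call without small replicate 1, 2, 3 or 5 or large replicate 1, 4, 5 or 6 (0.59 to 0.75), and ITGAV from small to large without small replicate 1 or 3 or large replicate 1, 3 or 6 (0.53 to 0.60). Against spontaneous pools ITGAV lost it without small replicate 1 or 3 or spontaneous replicate 1 or 2 (0.53 to 0.70), and CHST11 without small replicate 1, 3, 4, 5 or 6 or spontaneous replicate 1 or 5 (0.49 to 0.77). PAPSS1 kept its call only without small replicate 1 or 4 or spontaneous replicate 4, and EXTL2 lost it without spontaneous replicate 1, 2 or 3 (0.63 to 0.68). After median-of-ratios scaling CHST11 and ITGAV passed from small to large pools, while VCAN (0.65), EXTL2 (0.60) and the 3 called between small and spontaneous pools (ITGAV 0.56, CHST11 0.59, PAPSS1 0.40) did not. Without mitochondrially encoded genes VCAN (0.60) and ITGAV (0.51) lost their calls from small to large pools, and so did the 3 between small and spontaneous pools (ITGAV 0.55, CHST11 0.58, PAPSS1 0.39). With edgeR the calls from small to large pools held, and the 3 between small and spontaneous pools and EXTL2 (0.61) were lost. With DESeq2 the only one of the 7 lost was ITGAV between small and spontaneous pools. With no filter VCAN, and CHST11 and ITGAV against spontaneous pools, missed the threshold, as VCAN did with a mean of at least 1 CPM. PAPSS1 and EXTL2 missed it in one fit of all 3 classifications, and PAPSS1 with the replicate block.

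In oocyte pools SRGN had a lowest, median and highest value of 4.59, 55.1 and 303 CPM in small and of 51.2, 108 and 153 CPM in large follicles, and 57.0, 98.9, 506 and 704 CPM in the 4 spontaneous pools. Only 2 of the 4 spontaneous pools were above all small or large pools, and the range of the small pools covered the other two. SRGN rose between small and spontaneous follicles (log2 fold change 2.37, standard error 0.751, limma nominal p = 0.00374, adjusted p = 0.896, exact permutation p = 0.0810 for the mean CPM). It passed without small replicate 3 as well, and was called where LUM and GPC4 were not and where 0.774% of all transcripts were. Of all 10076 transcripts 454 had an unadjusted p under 0.05. The call did not hold with edgeR (1.90), with DESeq2 (1.89), with the replicate number as a block (1.07) or with no filter on low values, or when small replicate 5 (1.80), small replicate 6 (1.91), spontaneous replicate 3 (1.96) or spontaneous replicate 4 (1.80) was left out. Oocytes and CC were taken from the same complexes, so the libraries were separate while the cows were shared. SRGN was chosen for its level in CC of spontaneous follicles, and the oocyte pools carried cumulus markers. Its oocyte tests against spontaneous pools are therefore not independent of that choice.

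From small to large oocyte pools the SRGN log2 fold change was 1.27 (standard error 0.601, limma nominal p = 0.0428, adjusted p = 0.997, exact permutation p = 0.786), and without small replicate 3, the highest small pool, it was 1.85 and passed the threshold. It was 0.24 with edgeR and 0.23 with DESeq2, 0.70 without small replicate 5 and 0.81 without small replicate 6. From large to spontaneous oocytes it was 1.10 (standard error 0.461, limma nominal p = 0.0247, adjusted p = 0.968, exact permutation p = 0.105). It passed the threshold without spontaneous replicate 1 (1.72) or 2 (1.46) and with edgeR (1.65), and was 0.68 and 0.52 without spontaneous replicates 3 and 4. With all pools limma called none of SRGN, LUM and GPC4 in these comparisons, with SRGN under an unadjusted p of 0.05 in both, beside 0.655% and 0.943% of all transcripts called and 414 and 491 of 10076 under 0.05.

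**Figure D4:**
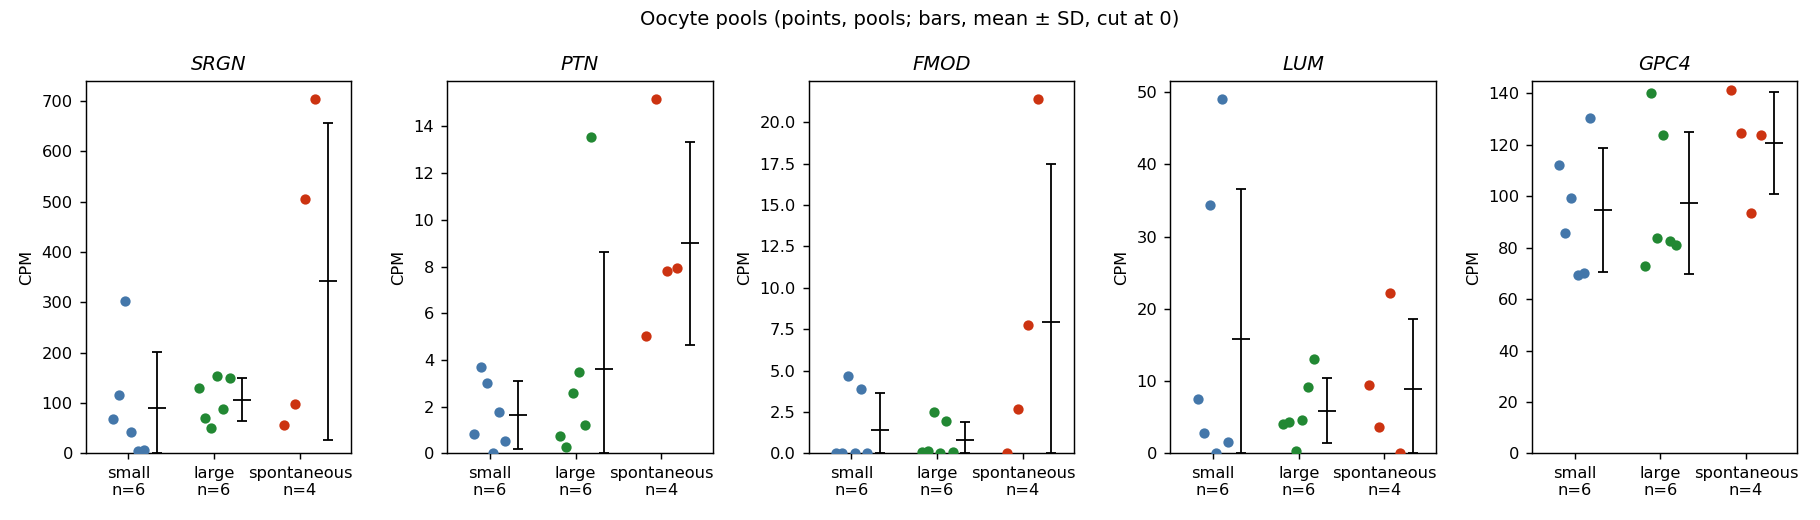
SRGN, PTN, FMOD, LUM and GPC4 in oocyte pools, in CPM on the vertical axis, by follicle classification; each point is a pool and the bars are the mean ± SD cut at 0 (n = 6, 6 and 4). PTN in the 4 spontaneous pools lies above all small pools, and SRGN lies above them in 2 of the 4.

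CC carried SRGN at levels above those of most oocyte pools, in tables scaled separately, and the cumulus markers of the oocyte pools are therefore given beside it. SRGN came to 1.12 to 16.0% of the summed CPM of the 14 cumulus and granulosa markers in CC pools. In oocyte pools it came to 0.397 to 7.49% in small and 3.89 to 24.7% in large pools, and to 4.93, 4.79, 19.0 and 109% in spontaneous replicates 1 to 4. Spontaneous replicate 4 had 704 CPM of SRGN with 643 CPM of cumulus markers. Spontaneous replicates 1 to 3 had 57.0, 98.9 and 506 CPM of SRGN with 1157, 2065 and 2667 CPM of markers. Small replicate 3 had the most of both among small pools, 303 CPM with 4042. Large replicates 4 and 6, highest of the large pools in both, had 153 and 149 CPM with 3236 and 3838. Large replicate 1 had 130 CPM with the fewest markers, 525 CPM. White blood cell markers summed to between 175 and 268 CPM for spontaneous, 136 and 203 CPM for large and 171 and 291 CPM for small oocyte pools. Of the 19 listed, only 4 passed the oocyte filter, namely CD3E, CSF1R, FCER1G and LCP1. CORO1A and ITGAM were at 0 in every oocyte pool and PTPRC in every small one, so the sum rested on few genes. The part of remaining CC in the SRGN level was not tested.

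**Figure D5:**
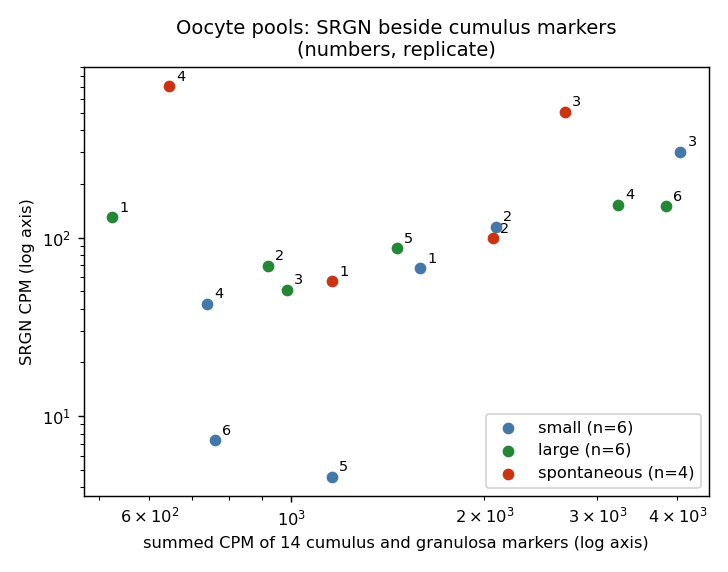
SRGN CPM against the summed CPM of 14 cumulus and granulosa markers in the 16 oocyte pools, both on log axes, coloured by follicle classification and numbered by replicate. Spontaneous replicate 4 has the most SRGN, 704 CPM, at 643 CPM of the markers, and small replicates 5 and 6 have the least.

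PTN in oocytes was at 0 to 3.70 CPM in small, 0.283 to 13.5 in large (medians 1.30 and 1.88) and 5.05, 15.2, 7.81 and 7.92 CPM in spontaneous pools. It reached 5 CPM in 0 small, 1 large and 4 spontaneous pools, so it passed the filter through the classification in which it was high. The PTN differences to spontaneous oocytes are therefore given with no test. All 4 spontaneous pools were above all small pools, while large replicate 6, at 13.5 CPM, lay among them. The PTN log2 fold change between small and spontaneous oocytes was 2.03, and from large to spontaneous oocytes it was 1.53. From small to large it was 0.50, which did not pass the threshold.

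FMOD, which failed the oocyte filter, was at 0 in 4 of 6 small, 1 of 6 large and 1 of 4 spontaneous pools. Its highest values were 21.4 and 7.74 CPM in spontaneous replicates 4 and 3, the replicates with the most SRGN, and 4.70 and 3.89 CPM in small replicates 3 and 5. No test was run on FMOD in oocytes.

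GPC4 was the member that oocyte pools carried most evenly. It had 69.5 to 130.5 CPM in small (median 92.5), 72.9 to 140.2 in large (median 83.1) and 141, 125, 93.6 and 124 CPM in spontaneous oocyte pools. No pool lacked it, and the 3 classifications overlapped. Its log2 fold changes were 0.04 from small to large (95% interval -0.43 to 0.51), 0.37 from small to spontaneous (-0.15 to 0.90) and 0.34 from large to spontaneous (-0.16 to 0.83), with limma nominal p-values of 0.873, 0.158 and 0.175. Set beside the 1.78 to 30.4 CPM of GPC4 in CC, these values come from a table that was scaled separately, and the difference was not tested.

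The remaining members were low in oocytes. LUM had at most 49.1 CPM, in small replicate 5, and its log2 fold changes of -0.40, -0.30 and 0.10 had limma nominal p-values of 0.621 or more. SDC4 had 34.3 CPM in small replicate 3 and at most 12.7 CPM in the other 15 pools. DCN reached 10.8 CPM in spontaneous replicate 3, and SDC1 had 3.26 CPM in small replicate 3 and was at 0 in 14 of 16 pools. GPC1 was at 0 in 13 of 16 pools and reached 1.90 CPM, and BGN had 1 read in all 16 pools. Small replicate 3, the highest small pool for SRGN, SDC1 and SDC4, was also the oocyte pool with the fewest reads (7664375), the highest share of mitochondrially encoded reads (5.0%) and the most cumulus markers (4042 CPM), and the part of these in its values was not tested.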

How the data were processed

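RNA from pools of 4 oocytes or of their CC was amplified and sequenced by the authors, who trimmed the reads with fqtrim, aligned them to UMD3.1 with Hisat2 and counted them on Ensembl genes with FeatureCounts. Whether counting used strand is not given in the sources used here. The deposited unit is CPM, each count divided by the library's reads on genes, in 2 tables scaled separately. CPM are not per length, so levels are not compared between genes. Whole reads were recovered from 100% of the values (within 0.01 of a read). No 2 pools of a group agreed within sampling noise (chi-square over its degrees of freedom at least 13.4 in CC and 60.9 in oocytes).

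The 9712 CC and 10076 oocyte transcripts that passed the filter were tested with limma, its trend option on, using log2(CPM + 1) of 2 classifications at a time, two-sided and without covariates. The threshold was a nominal p of 0.01, with Benjamini-Hochberg adjusted p-values over all transcripts tested beside it, and, as in the study, a call that involved small oocytes was required to hold without small replicate 3. An exact two-sided permutation test of mean CPM was run for each retained member. Of all transcripts 0, 3 and 1 in CC and 0 in each oocyte comparison had an adjusted p under 0.05. As alternatives, edgeR and DESeq2, which the authors ran on counts, were applied to the recovered reads. Other alternatives were leaving out each pool, the replicate number as a block, one fit of all 3 classifications, median-of-ratios scaling, CPM without mitochondrially encoded genes, a pseudocount of 0.1, a filter on the mean (1 CPM or more) and no filter. The same alternatives for the named list genes were added after seeing the data. The limma fit was tested on simulated data with 200 changed transcripts.

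The members and lists were chosen with earlier results of these data known. Each of the 10 members is named in every comparison, up to 8 genes of the lists with the smallest nominal p at or under 0.01 in each CC comparison, and the 3 transcripts most like each of SRGN, FMOD and PTN. Pools of a group came from different complexes, as far as the labels say. Gene order was taken from RefSeq, in which 10 of 10 symbols matched. Versions were R 4.3.3, limma 3.58.1, edgeR 4.0.16, DESeq2 1.42.0, Python 3.11.15, pandas 2.3.3, scipy 1.17.1 and matplotlib 3.10.9.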

Additional observations from a re-analysis of the deposited data

Results flagged for a closer look

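A pool lay far from the others of its group in 8 of the 51 groups examined, by the ratio of its gap to the range. The cutoff gives about 1 in 20 by chance for normally distributed values. CPM near 0, with several pools at 0, are not so distributed, so 8 of 51 is not read as an excess. Each was the highest pool of its group. In CC it was PTN in small replicate 6, at 412 CPM with 177 CPM in the next pool. In oocytes small replicate 3 stood apart for SRGN (303 CPM, next 115), SDC4 (34.3 CPM, next 4.75) and SDC1 (3.26 CPM, with the other 5 at 0). PTN stood apart in large oocyte replicate 6 (13.5 CPM, next 3.48). DCN did so in all 3 oocyte classifications, in small replicate 2 (2.14 CPM, next 0.409), large replicate 4 (1.46 CPM, next 0.254) and spontaneous replicate 3 (10.8 CPM, next 0.133).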

How the results depend on the processing

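Of 351 log2 fold changes under alternatives other than leaving out a pool, 339 counted as unchanged, and of 434 with a pool left out 393 did. For tested differences this meant the same direction and the same side of the threshold. For SRGN, FMOD and PTN in CC against spontaneous pools no threshold was applied. There it meant the same direction and a shift below the larger of the SDs within the classifications. From small to spontaneous oocytes the count of members called, 1 in the main test, was 2 with a mean of at least 1 CPM, the second being PTN, and 0 with edgeR, with DESeq2 and with the replicate number as a block. From large to spontaneous oocytes it was 0, and 1 with edgeR. With a pool left out the count ran from 0 to 2 from small to spontaneous oocytes and from 0 to 1 in the other oocyte comparisons and in CC from small to large and from large to spontaneous. From small to spontaneous CC pools it was 0 in all of them. Without the filter, in oocytes from small to spontaneous, SRGN missed the threshold and PTN passed it, also 1 member called. PTN entered the oocyte test through the classification in which it was high, so its part in these counts is no support for a difference. The cause of these moves was not tested.

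Small differences changed sign. GPC1 from large to spontaneous CC was -0.000152 with median-of-ratios scaling, -0.0111 with edgeR and -0.00896 with DESeq2, and ran from -0.16 to 0.31 with a pool left out. PRELP in the same comparison was -0.0642 with edgeR and -0.0681 with DESeq2. LUM was 0.0304 from small to spontaneous oocytes with the block and -0.17 from large to spontaneous oocytes with a pseudocount of 0.1. With a pool left out LUM ran from -0.97 to 0.16, from -0.95 to 0.51 and from -0.55 to 0.91 in oocytes from small to large, small to spontaneous and large to spontaneous, and GPC4 from -0.0758 to 0.14 in oocytes from small to large. In CC from small to large pools SDC1 ran from -0.29 to 0.29, LUM from -0.28 to 0.27 and GPC4 from -0.41 to 0.0410, and DCN from -0.26 to 0.0698 from small to spontaneous pools.

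Whether the replicate numbers pair the pools is not given by the labels. Pools of the same number had correlations of their deviations from -0.19 to 0.22 in CC, with 3 of 16 over 0.1. In oocytes these ran from -0.13 to 0.14, with 1 of 14 over 0.1. The 3 in CC were small replicate 2 with large (0.22) and with spontaneous (0.16) replicate 2, and large with spontaneous replicate 4 (0.12). Low correlations cannot exclude a pairing. With the block, SRGN from small to spontaneous oocytes was 1.07 and missed the threshold, and no other call on a member changed. BGN in CC and 6 members in oocytes failed the filter on CPM and were not tested, and BGN, with 20 reads in CC and 1 in oocytes, was limited by depth. Of all CC transcripts 79 were called from small to large, and 137 in one fit of all 3 classifications and 121 without the filter. From small to spontaneous CC pools the 231 calls became 126 with median-of-ratios scaling, 128 with edgeR and 120 without mitochondrially encoded genes. The 66, 78 and 95 oocyte calls became 113, 121 and 181 with DESeq2, with 100 and 148 for small to large and large to spontaneous without the filter and 42 for small to spontaneous with the block. The 7 calls on list genes, with PRELP, were held to 90 alternatives and 114 with a pool left out, of which 63 and 77 left the call as it was.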

Other observations

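Other cell-surface proteoglycans outside the 10 members were also carried by oocyte pools, and are named here after their values were seen. GPC3, which lies next to GPC4, had between 30.2 and 94.0 CPM over the 16 oocyte pools and between 2.09 and 23.6 CPM over the 17 CC pools. SDC3, a syndecan that PTN binds, had 11.2 to 33.5 CPM over the 16 oocyte pools and 0.284 to 8.60 CPM over the 17 CC pools. In oocytes neither passed the threshold in any of the 3 comparisons, and the oocyte and CC tables were scaled separately, so their levels were not tested against each other.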
